A study of Arabidopsis thaliana with 8 samples.

Results

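PCNA2, PRL and AUR1 are 3 Arabidopsis thaliana genes that act in DNA replication and mitosis, and their signals were followed here in floral nectaries before and after the flower opens. Each was chosen by name, as the gene of an ATH1 probe set assigned to exactly 1 locus. They are 3 of the 14291 probe sets with 1 locus, among 22746 probe sets tested. PCNA2 (AT2G29570) was read by probe set 266297_at, PRL (AT4G02060) by 255513_at and AUR1 (AT4G32830) by 253403_at.

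Cells copy their DNA in S phase and separate it in mitosis, and many genes for these steps are transcribed in step with the cycle. PCNA2 encodes the sliding clamp that holds DNA polymerase on its template. PRL (PROLIFERA) encodes the MCM7 subunit of the helicase that opens DNA at replication origins, and is known for its expression in dividing plant tissues. AUR1 encodes an Aurora kinase, a class of enzymes that phosphorylate proteins of the spindle and chromosomes in mitosis. Some plant cells also copy their DNA without dividing, which is called endoreduplication.

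RNA was measured on 8 arrays from wild-type Columbia-0 plants aged 30 to 35 days, kept under 16 h light and 8 h dark. Immature lateral nectaries (ILN, 3 arrays) came from flowers at stages 11 to 12, before opening and before nectar secretion. Mature lateral nectaries (MLN, 3 arrays), which secrete nectar, and mature median nectaries (MMN, 2 arrays), which secrete little, came from flowers at stages 14 to 15. Each array held a pool of 250 to 300 nectaries dissected by hand 4 to 8 h after dawn, with the plants of each replicate separate. Labelling began from 500 ng of RNA for lateral and 250 ng for median nectaries, so that for MMN nectary type and RNA input cannot be told apart. No median nectaries of stages 11 to 12 were analysed here, so the state of MMN is given against mature and immature lateral nectaries.

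Signals are linear units with a median of 100 on every array. Across arrays the minimum was 8.30 to 9.65 and the maximum 14929 to 23364. Differences are on the log2 scale from limma, with Benjamini-Hochberg adjusted p-values taken over the whole array, and a gene was called at an adjusted p under 0.05. Of 8 nectary markers 6 could be read, among them CRC, the regulator required for nectary formation, and SWEET9, the nectary sucrose transporter, and their summed signal was 41600 to 53800 in ILN, 64900 to 75300 in MLN and 55300 to 58300 in MMN. Of the 6, JMT and SHP2 were called higher in MLN than in ILN. Means in ILN, MLN and MMN were 3750, 15300 and 3350 for JMT and 3160, 7770 and 6910 for SHP2. CRC, SWEET9 and cwINV4 were not called in any comparison, and differed by 0.11, 0.18 and 0.02 in MLN against ILN. How much nectary tissue each pool held was not tested. The ratio of 3' to 5' ubiquitin probe signals, a measure of RNA integrity, was 2.65 to 3.60 in ILN, 2.08 to 2.39 in MLN and 2.21 to 2.30 in MMN. The ILN arrays were separate from the mature ones in this ratio. The same ratio overlapped between groups for GAPDH, at 1.76 to 6.93 in ILN, 2.79 to 5.73 in MLN and 2.63 to 3.18 in MMN, and for actin, at 8.00 to 13.9, 7.08 to 8.09 and 8.28 to 8.66. The part of RNA integrity in the differences from ILN was not tested.

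PCNA2 and PRL fell between immature and mature lateral nectaries, while AUR1 rose. PCNA2 signals were 241, 417 and 608 in ILN, and 90.0, 56.2 and 83.8 in MLN. Every ILN array lay above every MLN array. The ILN mean was 422 ± 183 (SD, n = 3) and the MLN mean 76.7 ± 18.0 (SD, n = 3), and the difference was -2.39 (SE 0.31, 95% confidence interval -3.08 to -1.70, adjusted p = 3.17e-04 in limma), a level 5.25-fold lower in MLN. PCNA2 owes its gene name here only to a list of genes that the study selected for at least 5-fold change between MLN and ILN on these arrays, so its fall is no independent evidence of direction. PCNA1, which encodes a near-identical clamp protein, had no probe set of its own under the annotation used, and its part in the signal of PCNA2 was not tested.

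**Figure D1:**
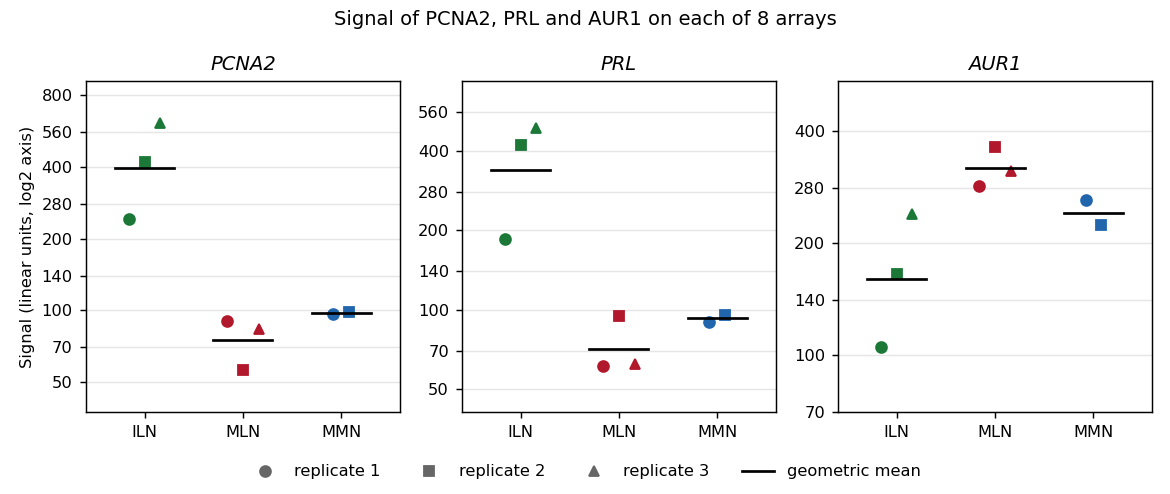
Signal of PCNA2, PRL and AUR1 (vertical axis, linear signal units on a log2 axis) on each array, by nectary type (horizontal axis). Each point is 1 array, its shape gives the replicate number and the bar is the geometric mean of the group. PCNA2 and PRL lie at 186 or above in ILN and below 100 in all mature nectaries, and AUR1 is lowest in ILN replicate 1, at 105, and highest in MLN replicate 2, at 363.

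PRL signals were 186, 421 and 490 in ILN, and 61.3, 94.3 and 62.1 in MLN. Here too the groups did not overlap, and ILN replicate 1 was the lowest of its group, as for PCNA2. The mean went from 366 ± 159 (SD, n = 3) in ILN to 72.6 ± 18.8 (SD, n = 3) in MLN, a difference of -2.25 (SE 0.33, 95% confidence interval -2.98 to -1.51, limma adjusted p = 6.75e-04), or 4.74-fold lower in MLN. PRL was named by the platform annotation, although it also stands on the 5-fold list. Under the annotation used, which left 7896 probe sets without a locus, none of the other MCM genes of the list had a probe set of its own.

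AUR1 moved the other way. Its signals were 105, 165 and 239 in ILN, and 285, 363 and 311 in MLN. The lowest MLN array was above the highest ILN array, so these groups did not overlap either. The ILN mean was 170 ± 67.4 (SD, n = 3) and the MLN mean 320 ± 40.0 (SD, n = 3), and the difference was 0.99 (SE 0.27, 95% confidence interval 0.39 to 1.59, limma adjusted p = 0.0232), a level 1.98-fold higher in MLN. The call was lost without MLN replicate 2 (adjusted p = 0.0768) or ILN replicate 2 (adjusted p = 0.0617). In this comparison 3 of the 3 genes were called, while of all probe sets 11.5% were called lower and 12.0% higher (23.6% in either direction). The 3 genes were chosen with earlier results of these data known, and PCNA2 and PRL stand on the 5-fold list. Their count is therefore no independent evidence beside that share.

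The spread between ILN arrays was the widest of the 3 nectary types for each of these genes. The highest ILN signal over the lowest was 2.52 for PCNA2, 2.63 for PRL and 2.29 for AUR1, against 1.60, 1.54 and 1.28 in MLN, for the same genes in the same order. ILN replicate 1 gave the lowest signal of its group for all 3, whether the gene fell or rose afterwards. It was lowest for 33.8% of all probe sets, and for 69.6% of the 2619 that were lower in MLN. Of the ILN arrays it had the highest 3' to 5' ratio for ubiquitin (3.60) and GAPDH (6.93) and the lowest for actin (8.00). The part of RNA integrity in its low signals was not tested. In bulk RNA, fewer dividing cells and less transcript in each cell cannot be told apart.

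Between median and lateral nectaries of the same stages 0 of the 3 genes were called in limma, where 0.730% of all probe sets were called at an adjusted p under 0.05 (0.572% higher and 0.158% lower). At an unadjusted p under 0.05 the count for the 3 genes was also 0, with no share of all probe sets taken at that threshold. PCNA2 signals were 96.6 and 98.1 in MMN, above all 3 MLN arrays, and the mean was 97.4 ± 1.03 (SD, n = 2). The difference from MLN was 0.37 (SE 0.35, 95% confidence interval -0.40 to 1.15, limma adjusted p = 0.905). The interval takes in a slightly lower and a more than doubled level in MMN, so a moderate difference was not resolved with these arrays.

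PRL signals in MMN were 89.7 and 95.9, within or just above the range of MLN, and the mean was 92.8 ± 4.34 (SD, n = 2). The difference from MLN was 0.38 (SE 0.37, 95% confidence interval -0.44 to 1.20, limma adjusted p = 0.911). AUR1 signals in MMN were 261 and 223, below all 3 MLN arrays and with a mean of 242 ± 27.5 (SD, n = 2). This difference was -0.40 (SE 0.31, 95% confidence interval -1.07 to 0.27, limma adjusted p = 0.875). In the order of mean levels, PCNA2 and PRL therefore ran ILN, MMN, MLN and AUR1 ran MLN, MMN, ILN, and the step between MLN and MMN did not pass the test for any of them, nor did that between MMN and ILN for AUR1.

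Against immature lateral nectaries, MMN were lower in PCNA2 by a difference of -2.02 (SE 0.35, 95% confidence interval -2.79 to -1.25, limma adjusted p = 0.00239), or 4.05-fold. PRL was lower by a difference of -1.86 (SE 0.37, 95% confidence interval -2.68 to -1.04, limma adjusted p = 0.00519), or 3.64-fold. In this comparison 8.86% of all probe sets were called lower and 9.97% higher. AUR1 was not called, at 0.59 (SE 0.31, 95% confidence interval -0.09 to 1.26, limma adjusted p = 0.215), and its MMN replicate 2 lay below ILN replicate 3. This comparison uses the same ILN arrays as that of MLN with ILN and the same MMN arrays as that of MMN with MLN, so the 3 comparisons are not independent.

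Of the 3 Aurora kinase genes, AUR1 was called higher in MLN, AUR3 lower and AUR2 in neither direction. AUR3, the Aurora kinase found at centromeres, had signals of 77.3, 66.1 and 148 in ILN, 45.1, 43.7 and 59.2 in MLN, and 48.3 and 37.7 in MMN. It was highest in ILN with no overlap, and differed from ILN by -0.90 in MLN (SE 0.29, limma adjusted p = 0.0431) and by -1.09 in MMN (SE 0.32, limma adjusted p = 0.0357). The MLN call was lost without MLN replicate 1 or 2, ILN replicate 3 or either MMN array, and the MMN call without MLN replicate 1, ILN replicate 3 or either MMN array. Both were also lost in a limma fit of only the groups compared (adjusted p = 0.0600 and 0.0655). AUR2, the closest relative of AUR1, was dim at 35.6, 45.7 and 70.2 in ILN, 40.0, 43.1 and 36.6 in MLN, and 37.4 and 28.6 in MMN. The groups overlapped, and the difference from ILN was -0.29 in MLN (limma adjusted p = 0.391) and -0.57 in MMN (limma adjusted p = 0.168). The difference between the changes of the Aurora genes was not tested.

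**Figure D2:**
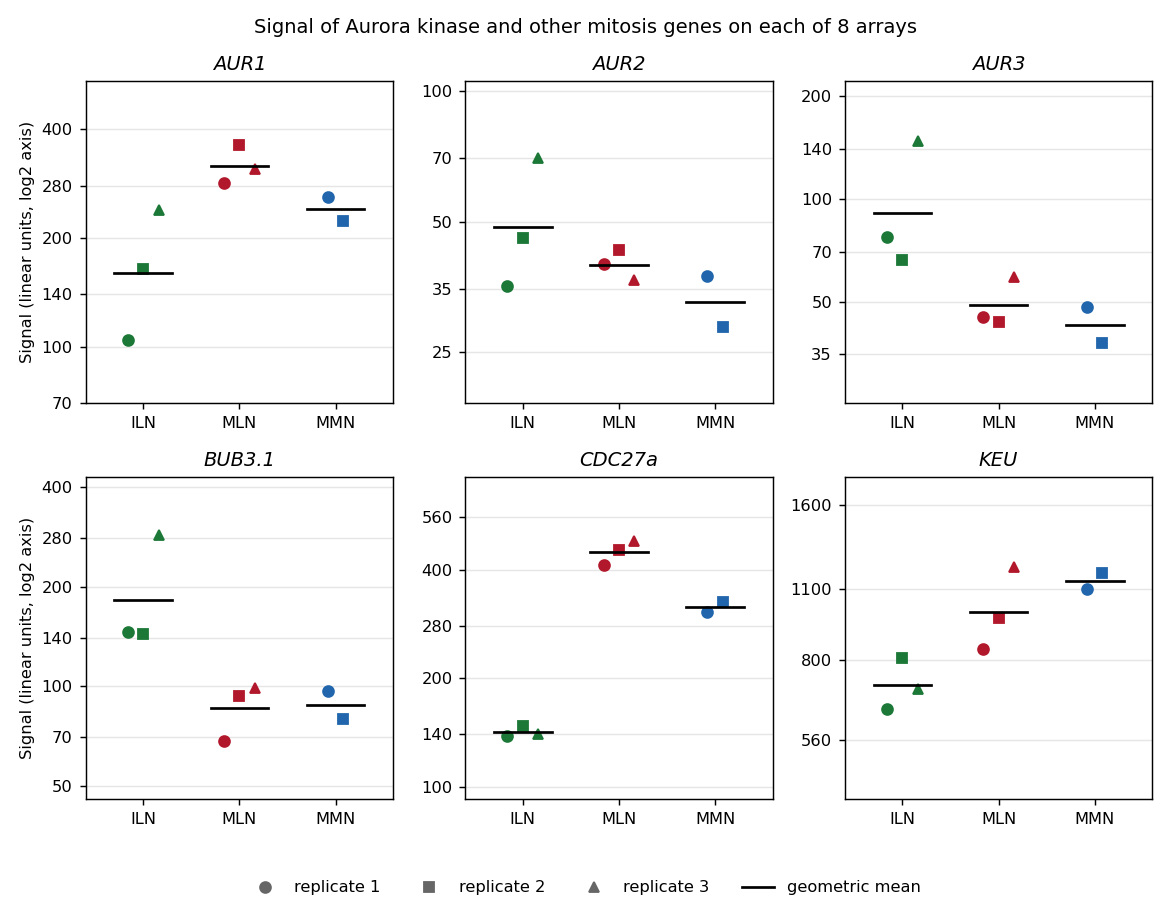
Signal of the 3 Aurora kinase genes and of BUB3.1, CDC27a and KEU (vertical axes, linear signal units on a log2 axis) on each array, by nectary type (horizontal axis). Points are arrays, with the replicate number as the shape, and bars are geometric means. AUR1 and CDC27a are lowest in ILN, whereas AUR3 and BUB3.1 are highest there, each with a high ILN replicate 3 (148 and 286).

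To set these genes among others of the same processes, 266 genes in 20 lists on cell division were looked up. Of these, 44 had a probe set of their own under the annotation used, PCNA2, PRL and AUR1 included. In MLN against ILN 20 of the 44 were called lower (45.5%) and 7 higher (15.9%), beside 11.5% and 12.0% of all probe sets, and the median difference was -0.70, beside 0.17 over all probe sets. Of the 44, 8 were named only by the study's 5-fold list. Without them 14 of 36 were lower (38.9%) and 5 were higher, with a median of -0.37. PRL, HTB2 and SIM stand on that list too, and of the 33 genes that do not, 11 were lower (33.3%) and 5 higher. Some of these 33, among them RFC3, CYCD3;2, CYCD4;1, E2FB, CPR5 and AN3, were named only by the study's table of genes called present in nectaries. A gene high in a single nectary type can enter that table, so these counts are not free of selection on these arrays. Neither the A- and B-type cyclins (19 genes) nor the cyclin-dependent kinases (12 genes), the engines of the mitotic cycle, could be read by a probe set of their own here.

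The 44 genes showed 0 calls between MMN and MLN, a comparison in which 0.730% of all probe sets were called, so that 0 is close to the background. Here limma gave 1 higher and 3 lower at an unadjusted p under 0.05. The share of all probe sets at that threshold was not taken, so nothing is read from this count. With array weights limma called 1 lower, beside 183 of all 22746 probe sets. Their differences ran from -0.74 to 0.71 with a median of 0.03, beside -0.03 over all probe sets. In MMN against ILN 19 were lower (43.2%) and 7 higher (15.9%), beside 8.86% and 9.97% of all probe sets, with a median of -0.81 beside 0.11. Here the count was 13 lower and 5 higher of the 36 genes not named by the 5-fold list alone.

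**Figure D3:**
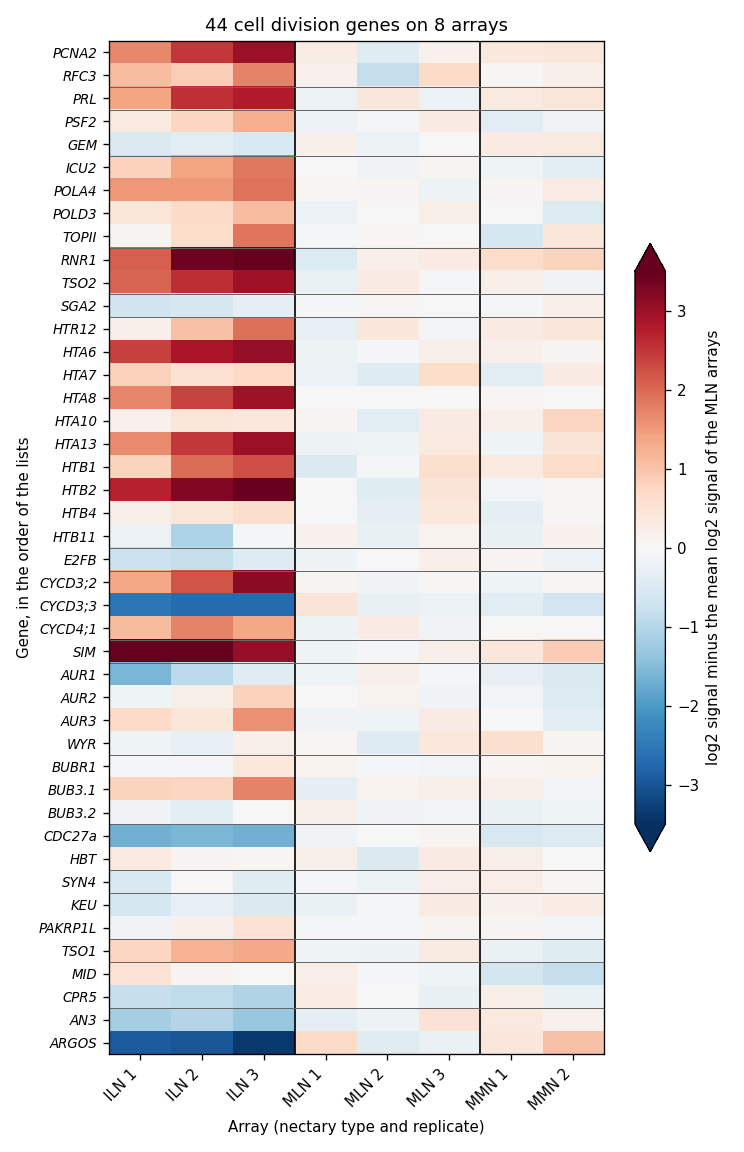
The 44 cell division genes (rows, in the order of the lists, with thin lines between lists) on the 8 arrays (columns). Colour gives the log2 signal minus the mean log2 signal of the gene on the MLN arrays, red for higher and blue for lower, and colours end at 3.5 either way. Red in the ILN columns covers most replication genes and part of the histones, while CYCD3;3, CDC27a and ARGOS are blue there, and the MMN columns stay close to white.

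Among 11 genes of DNA replication, PCNA2 and PRL included, 9 were lower in MLN than in ILN (81.8%, beside 11.5% of all probe sets). None was higher (0, beside 12.0%), and the median difference was -1.35 beside 0.17. Without those named by the 5-fold list alone, 6 of 8 were lower. These 6 include PRL, which stands on that list too, and RFC3, named only by the study's table of genes called present. The counts are thus not free of selection on these arrays. The genes RNR1 and TSO2 encode the large and a small subunit of ribonucleotide reductase, which makes the deoxyribonucleotides for DNA synthesis. Both are among the genes named by the 5-fold list alone. RNR1 signals were 255, 637 and 836 in ILN, 43.2, 67.3 and 73.6 in MLN, and 93.6 and 102 in MMN. It was 8.60-fold lower than in ILN in MLN (log2 SE 0.38, limma adjusted p = 2.10e-04) and 5.27-fold lower in MMN (log2 SE 0.43, limma adjusted p = 0.00269). TSO2 differed from ILN by -2.54 on the log2 scale in MLN and by -2.49 in MMN.

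For the polymerase genes the differences from ILN were smaller. POLA4, a primase gene named by the platform annotation, had signals of 157, 158 and 207 in ILN, 58.5, 59.5 and 48.7 in MLN, and 59.3 and 66.3 in MMN. Its ILN arrays lay close together and well above all others, and it differed from ILN by -1.64 in MLN (SE 0.20, limma adjusted p = 2.12e-04) and by -1.46 in MMN (SE 0.23, limma adjusted p = 0.00118). ICU2, the catalytic subunit of DNA polymerase alpha, was at -1.35 in MLN (limma adjusted p = 0.00186) and at -1.60 in MMN (limma adjusted p = 0.00171). No single array ended the calls of POLA4 and ICU2.

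Weaker falls depended on single arrays. POLD3, a subunit gene of DNA polymerase delta, was at -0.72 in MLN (limma adjusted p = 0.0406) and -0.97 in MMN (limma adjusted p = 0.0210). PSF2, of the GINS complex that works with the MCM helicase, was at -0.79 in MLN (limma adjusted p = 0.0421) and -1.04 in MMN (limma adjusted p = 0.0240). For both the MLN call was lost in 6 of the 8 fits without 1 array, which left out MLN replicate 1 or 2, ILN replicate 2 or 3, or either MMN array. The MMN calls were lost without ILN replicate 2 or 3 or MMN replicate 2, and for PSF2 also without MMN replicate 1. RFC3 (AT5G27740), a subunit of the complex that loads the PCNA clamp, was at -1.22 in MLN (limma adjusted p = 0.0253), which failed without MLN replicate 1 or 2 or ILN replicate 3, and was at -1.10 in MMN (limma adjusted p = 0.0692). GEM, whose protein binds the licensing factor CDT1, was the replication list gene that rose in MMN, by 0.77 (limma adjusted p = 0.0167, lost without either MMN array), and it was at 0.48 in MLN (limma adjusted p = 0.0691).

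**Figure D4:**
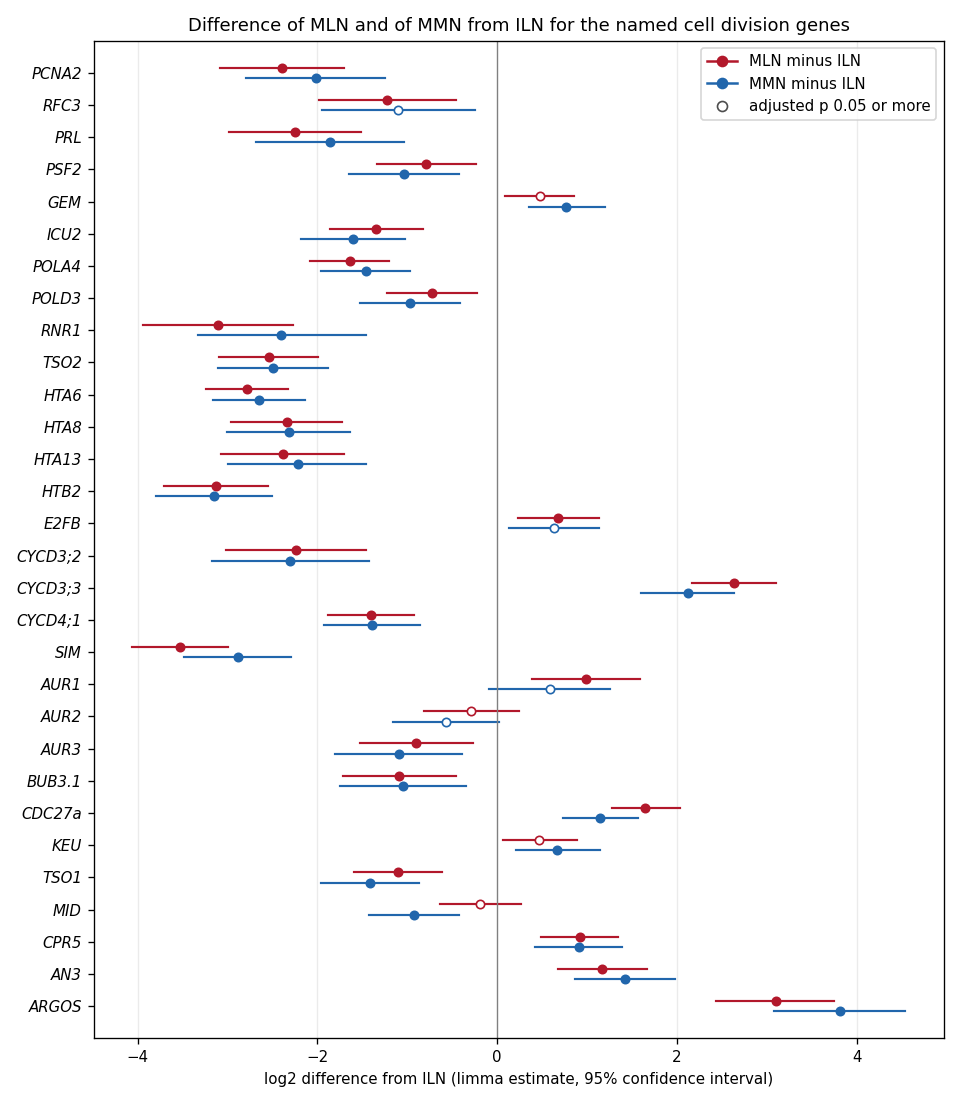
Difference of MLN (red) and of MMN (blue) from ILN on the log2 scale (horizontal axis) for the named cell division genes (vertical axis). Points are limma estimates, lines are 95% confidence intervals and open points have an adjusted p of 0.05 or more. PCNA2 and PRL sit at -2.39 and -2.25 in MLN and AUR1 at 0.99, and the largest differences are those of SIM, at -3.53, and ARGOS, at 3.81 in MMN.

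Histones package newly copied DNA, and 5 of 10 core histone genes were lower in MLN (beside 11.5% of all probe sets) while 0 were higher (beside 12.0%). A count without those named by the 5-fold list alone was made with the chromatin assembly gene SGA2 included. It gave 2 of 8 lower and 0 higher. HTB2, which is among the lower ones, stands on that list too, so these counts are not free of selection on these arrays. HTB2, an H2B gene, had signals of 576, 840 and 968 in ILN, 87.7, 66.0 and 121 in MLN, and 83.7 and 91.7 in MMN. Its difference from ILN was -3.13 in MLN (SE 0.26, limma adjusted p = 1.94e-05) and -3.15 in MMN (SE 0.29, limma adjusted p = 5.01e-05), with no overlap. The H2A genes HTA6, HTA8 and HTA13 differed from ILN by -2.78, -2.34 and -2.38 in MLN and by -2.65, -2.32 and -2.22 in MMN, and were named by the 5-fold list alone. The fifth was HTB1, named here after its values were seen, at -1.66 in MLN (limma adjusted p = 0.00722) and -1.17 in MMN (limma adjusted p = 0.0683).

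The 5 histone genes that did not pass in either comparison with ILN, also named after their values were seen, were HTA7, HTA10, HTB4, HTB11 and the centromeric H3 gene HTR12. All but HTR12 were bright, with signals of 746 or more on every array. HTR12 ran from 32.3 to 109 in ILN and from 23.2 to 37.1 in MLN, a difference of -1.05 (limma adjusted p = 0.0527). Histone genes share much of their sequence, so part of a signal may come from a copy, and this was not tested.

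Genes that control entry into the cycle went in both directions. D-type cyclins carry growth signals to the start of S phase. CYCD3;2 had signals of 345, 621 and 1210 in ILN, 145, 124 and 138 in MLN, and 122 and 138 in MMN, and differed from ILN by -2.24 in MLN (SE 0.36, limma adjusted p = 0.00104) and by -2.30 in MMN (SE 0.40, limma adjusted p = 0.00234). CYCD3;3 was the reverse, at 406, 364 and 361 in ILN, 3190, 1970 and 2050 in MLN, and 1820 and 1470 in MMN. It rose by 2.64 in MLN (SE 0.21, limma adjusted p = 1.42e-05) and by 2.12 in MMN (SE 0.24, limma adjusted p = 1.48e-04), and is another gene named by the 5-fold list alone. CYCD4;1 fell as well, at -1.40 in MLN and -1.39 in MMN (limma adjusted p = 8.96e-04 and 0.00241).

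SIM encodes an inhibitor of cyclin-dependent kinases, known for its part in endoreduplication of leaf hairs. Its signals were 1520, 1710 and 978 in ILN, 107, 113 and 137 in MLN, and 156 and 219 in MMN. It had the deepest fall of the 44 genes in MLN, at -3.53 (SE 0.24, limma adjusted p = 5.17e-06), or 11.5-fold, and was at -2.88 in MMN (SE 0.27, limma adjusted p = 5.09e-05). Unlike PCNA2, PRL and AUR1, it was not lowest in ILN replicate 1 among the ILN arrays. TSO1, a regulator of division in floral meristems, was at -1.10 in MLN (limma adjusted p = 0.00460) and -1.41 in MMN (limma adjusted p = 0.00259). E2FB, an activator of S phase genes, rose by 0.68 in MLN (limma adjusted p = 0.0327), but not past the threshold without MLN replicate 2 or 3 or ILN replicate 1 or 2, or with array weights (0.58, limma adjusted p = 0.0864), and was at 0.63 in MMN (limma adjusted p = 0.0781).

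**Figure D5:**
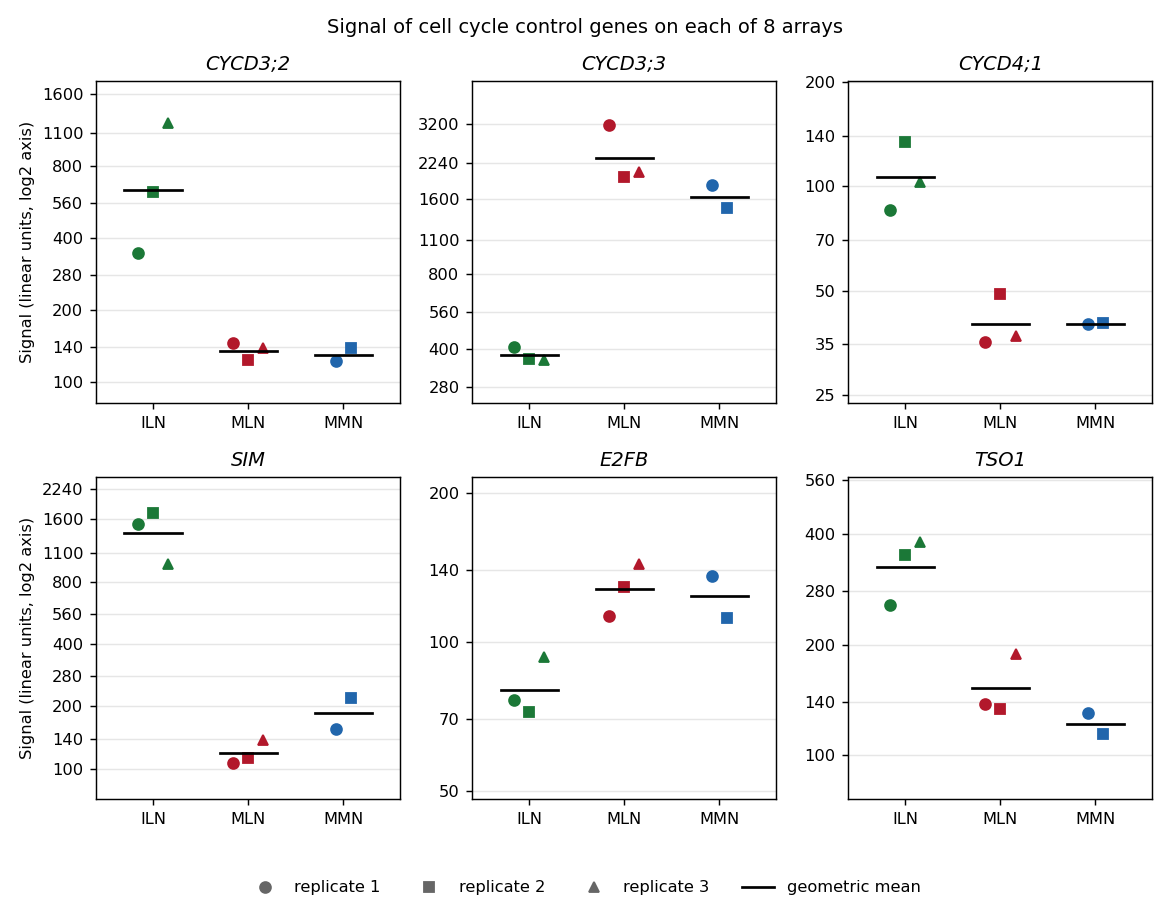
Signal of 6 genes that control the cell cycle (vertical axes, linear signal units on a log2 axis) on each array, by nectary type (horizontal axis). Points are arrays, with the replicate number as the shape, and bars are geometric means. CYCD3;2, CYCD4;1, SIM and TSO1 are highest in ILN, while CYCD3;3 stays at 361 to 406 in ILN and reaches 1470 or more in all mature nectaries.

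Of 12 genes of mitosis and cytokinesis, AUR1 included, 2 were lower and 2 higher in MLN (16.7% each way, near the 11.5% and 12.0% of all probe sets), and the median difference was -0.01. CDC27a, a subunit of the anaphase-promoting complex that marks mitotic cyclins for breakdown, was the other that rose with AUR1. Its signals were 139, 148 and 140 in ILN, 411, 452 and 481 in MLN, and 305 and 326 in MMN, and it rose by 1.65 in MLN (SE 0.17, limma adjusted p = 7.57e-05) and by 1.15 in MMN (SE 0.19, limma adjusted p = 0.00189). BUB3.1, of the spindle checkpoint, was the other that fell with AUR3, at -1.09 in MLN (limma adjusted p = 0.0174, lost without MLN replicate 1 or ILN replicate 3) and -1.05 in MMN (limma adjusted p = 0.0399, lost without MLN replicate 2, ILN replicate 3 or either MMN array). With the replicate number as a block the MMN value of BUB3.1 was -0.84 (limma adjusted p = 0.0517). KEU, whose protein works with the syntaxin of the cell plate, was at 0.47 in MLN (limma adjusted p = 0.0926) and rose by 0.67 in MMN (limma adjusted p = 0.0469), a call lost without any 1 of 7 arrays, MLN replicate 3 being the exception.

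Of 4 genes on the lists of endoreduplication and organ growth, SIM not among them, 3 were higher in MLN and 0 lower, where 12.0% of all probe sets were higher. Without ARGOS, named by the 5-fold list alone, 2 of 3 were higher. AN3, a transcriptional coactivator that promotes cell proliferation in leaves, had signals of 443, 496 and 403 in ILN, 808, 881 and 1430 in MLN, and 1270 and 1120 in MMN. It rose by 1.17 in MLN (SE 0.23, limma adjusted p = 0.00324) and by 1.42 in MMN (SE 0.25, limma adjusted p = 0.00263). ARGOS, an auxin-induced gene that prolongs organ growth, rose from 28.9 to 39.5 in ILN to 222 to 474 in MLN and 395 to 604 in MMN, 8.55-fold and 14.0-fold higher (log2 SE 0.30 and 0.33, limma adjusted p = 4.65e-05 and 2.98e-05).

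The 2 genes measured from the endoreduplication list were split. SIM, which also bears on endoreduplication in leaf hairs, was counted with the cell cycle control genes and fell, at -3.53 in MLN and -2.88 in MMN. CPR5 rose by 0.92 in MLN (limma adjusted p = 0.00629) and by 0.91 in MMN (limma adjusted p = 0.0147, lost without MMN replicate 1). MID, which works with DNA topoisomerase VI, was at -0.19 in MLN (limma adjusted p = 0.513) and fell by 0.92 in MMN (limma adjusted p = 0.0167, lost without either MMN array).

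The genes most like each of the 3 were sought among 7642 probe sets with 1 locus and a mean signal of at least 100 in some nectary type, by Pearson's r of log2 signals over the 8 arrays. These r are descriptions, since the arrays share 3 group means. AT1G09310 (r = 0.995), AT2G20060 (0.994), AT5G47540 (0.994), AT3G16370 (0.993) and AT1G72090 (0.992) were closest to PCNA2. PRL was followed most closely by AT3G58610 (r = 0.998), AT2G45520 (0.997), EMB2786 (0.997), AT5G13520 (0.995) and AT3G16080 (0.992). None of these 10 is on a cell division list. The fall from ILN to mature nectaries with a low ILN replicate 1 was common, since 346 of the other 7641 genes reached r of at least 0.95 with PCNA2 and 322 with PRL.

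The pattern of AUR1 had fewer close matches, 7 of 7641 genes at r of at least 0.95. The closest were AT5G08650 (r = 0.971), AT1G71480 (0.969), AT5G47710 (0.967), AT5G20220 (0.966) and AT5G29090 (0.959). AT1G71480 had signals of 107, 249 and 327 in ILN, 591, 712 and 634 in MLN, and 592 and 461 in MMN. Like AUR1 it was lowest in ILN replicate 1 and highest in MLN replicate 2.

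Genes that mark neighbouring floral tissue gave few readable probe sets. Of the tapetum and anther list 1 of 11 was read, AMS, at 19.1 to 29.2 on every array, toward the low end of the signals. The pollen list was read only through AGL18, 1 of 10 and a gene not restricted to pollen, at 246 to 391 in ILN, 733 to 766 in MLN and 1180 to 1530 in MMN. It was called higher than ILN in both mature types, and MMN differed from MLN by 0.85 (limma adjusted p = 0.196). Of the carpel and ovule list 2 of 8 were read, INO and SPT, and their summed signal of 232 to 349 in ILN, 215 to 385 in MLN and 245 to 422 in MMN overlapped. Of the phloem and xylem list 1 of 10 was read, IRX3, at 31.9 to 50.5 in ILN, 54.3 to 84.2 in MLN and 54.6 to 54.8 in MMN. IRX3 differed from ILN by 0.70 in MLN (limma adjusted p = 0.0482) and by 0.47 in MMN (limma adjusted p = 0.238). Of the sepal and petal list 0 of 8 were read, so this adjacent tissue had no marker here. The lowest signal of any probe set tested was 8.30, so a marker signal above 0 does not by itself show such tissue. The part of such tissue in the values of PCNA2, PRL and AUR1 was not tested.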

How the data were processed

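The deposited table gives linear signal intensity values for 22810 probe sets on 8 ATH1 arrays. The authors quantile-normalized the probe intensities jointly with public arrays of other tissues, summarized them with RMA (Genedata Expressionist), and brought every array to a median of 100 by a linear factor. Versions of that software: not given in the sources used here. Fold changes and p-values that the authors list in their tables were not used.

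Signals were transformed to log2, 64 control probe sets were left out, and 22746 were fitted in limma 3.58.1 (R 4.3.3) with 1 mean for each nectary type over all 8 arrays, a variance prior that follows the mean, and two-sided tests with Benjamini-Hochberg adjustment. The procedure was tested on simulated data. The number of arrays limits the precision. Probe sets carry a gene name if either the platform annotation or tables of the paper pair them with exactly 1 locus (559 had several and 7896 none), and loci were matched to the TAIR10.1 reference table by its symbols or synonyms. The symbols printed are those of the lists, and for RFC3 (AT5G27740), POLA4, E2FB and MID they are synonyms there, where the main symbols are EMB2775, POLA3, E2F1 and BIN4. Coordinates and sequences were not used here.

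The members and the gene lists were chosen with earlier results of these data known. The genes named are PCNA2, PRL, AUR1 and their closest measured relatives, up to 4 called genes with the smallest adjusted p from each cell division list, and the 5 genes most like each of the 3. Of list genes, 12 with a probe set but a symbol that is neither the symbol nor a synonym of their locus in the reference, and 13 with only shared probe sets were left out. The labels number the replicates. As a pairing check, each MLN array's deviation from its group mean was set against that of the ILN array of equal number. This gave correlations of 0.338, 0.241 and 0.211 across probe sets, so a fit with the replicate number as a block was run as an alternative. For MMN replicates 1 and 2 the same check gave 0.0721 and -0.0201 against MLN, and -0.027 and -0.071 against ILN. Figures were drawn in Python 3.11.15 with matplotlib 3.10.9.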

Additional observations from a re-analysis of the deposited data

How the results depend on the processing

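The directions of PCNA2, PRL and AUR1 held under all alternatives. A t-test on linear signals gave unadjusted p of 0.0314 (PCNA2), 0.034 (PRL) and 0.0293 (AUR1) for MLN against ILN. Once adjusted, it ended the calls. Adjusted by Benjamini-Hochberg or as Storey q, it gave for MLN against ILN PCNA2 at -2.46 (0.145 and 0.0620), PRL at -2.33 (0.149 and 0.0639) and AUR1 at 0.92 (0.141 and 0.0603). For MMN against ILN it gave PCNA2 at -2.12 (unadjusted p = 0.0979, adjusted 0.279, Storey q 0.150, two-sided, a t-test named in the methods and not an exact test) and PRL at -1.98 (0.105, 0.287 and 0.154, in the same order). PCNA2 and PRL are on the study's 5-fold list, cut on its own t-test p and false discovery rate. The adjusted t-test here did not call them. The paper took genes called present and states no signal scale for that test, so its test was not repeated. Of the 44 list genes the t-test with Benjamini-Hochberg adjustment called 1 higher and 0 lower in MLN against ILN, beside 457 and 316 of all 22746 probe sets. In MMN against ILN it called 2 higher and 0 lower, beside 273 and 73 of all probe sets. With Storey q it called 7 lower in MLN, and 4 higher and 0 lower in MMN. Over all probe sets the same counts were 1458, 1260 and 387. Without adjustment the t-test called 2 lower in MMN against MLN and 8 lower in MMN against ILN, beside 739 and 1736 of all probe sets. In a fit of the 11373 probe sets with the higher mean signal, which leaves fewer list genes, 13 were lower in MLN and 11 in MMN against ILN. Of all 11373 probe sets, 2209 and 1784 were lower. Array weights gave 1 lower in MMN against MLN, beside 183 of all probe sets, where the cause was not tested.

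Leaving out 1 array at a time, PCNA2 ran from -2.75 to -2.08 in MLN against ILN, 0.16 to 0.50 in MMN against MLN and -2.37 to -1.70 in MMN against ILN. PRL ran from -2.68 to -1.98, 0.28 to 0.59 and -2.29 to -1.59 in the same comparisons, and AUR1 from 0.68 to 1.28, -0.52 to -0.28 and 0.28 to 0.88. The counts ran from 5 to 7 higher and 15 to 22 lower in MLN against ILN, stayed at 0 and 0 in MMN against MLN, and ran from 4 to 7 higher and 14 to 23 lower in MMN against ILN. The count of 4 came without MMN replicate 1. With the replicate number as a block, PCNA2 was at -2.39 (limma adjusted p = 1.67e-04), 0.57 (0.487) and -1.82 (0.00346), PRL at -2.25 (2.40e-04), 0.47 (0.564) and -1.78 (0.00392), and AUR1 at 0.99 (0.0142), -0.26 (0.738) and 0.72 (0.113). The list counts with the block were 8 higher and 22 lower, 0 and 0, and 8 and 19. Over all probe sets they were 3362 and 2955, 196 and 79, and 2296 and 1939. The block turned AUR3 in MMN against MLN from -0.20 to 0.05, raised E2FB in MMN to a call (0.72, adjusted p = 0.0467) and ended that of BUB3.1 in MMN, and changed no other call among the named genes. A fit of only the groups compared ended the MLN calls of PSF2 (adjusted p = 0.0614), POLD3 (0.0526) and AUR3 (0.0600) and the MMN calls of AUR3 (0.0655) and BUB3.1 (0.0600), and array weights that of E2FB in MLN (0.0864). The t-test gave AUR3 an unadjusted p of 0.141 in MLN and 0.203 in MMN against ILN (not an exact test). A further quantile normalization moved the median difference of all probe sets in MLN against ILN from 0.17 to 0.05 and left AUR1 at 1.08 (adjusted p = 0.0142). With the list genes put back whose symbol did not match the reference, an alternative chosen after seeing the data, 22 of 56 were lower and 7 higher in MLN, and 22 and 8 in MMN against ILN. Signals near the low end of the arrays, such as those of AUR2, carry background.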
